A study of Mus musculus with 6 samples.

Results

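The genes described here encode 35 liver enzymes of sulfur amino acid, methyl group, urea cycle and amino acid breakdown pathways. They were taken by gene symbol from probe sets that the platform annotation pairs with exactly 1 symbol, and the brightest probe set, by its mean over the 6 arrays, stood for a gene with several. All 35 were found, among 22180 genes measured in this way. The samples were primary hepatocytes from wild-type adult male C57Bl/6 mice, cultured without serum in William's medium. Of 6 one-colour Affymetrix MoGene-2_0-st arrays, 3 came from cells given the synthetic FXR agonist GW4064 at 2 µM for 4 h, and 3 from cells given the solvent DMSO. FXR is the nuclear receptor for bile acids. The series design names 3 independent preparations of hepatocytes, and the arrays of each group carry the numbers 1 to 3. How many animals entered a preparation is not given in the sources used here. The comparison of GW4064 with DMSO asks which genes respond to the agonist in these cells.

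The liver parenchymal cell handles most of the body's amino acid nitrogen and methyl groups. Methionine is turned into S-adenosylmethionine, the methyl donor of most methylation reactions. The homocysteine left over is either methylated back to methionine or passed through cystathionine to cysteine, from which glutathione and taurine are made. Taurine is joined to bile acids in the mouse liver, which ties the sulfur branch to the pathway FXR is known to control. Ammonia released by amino acid breakdown enters the urea cycle.

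Values are the deposited log2 intensities, and a difference of 1 on this scale is a 2-fold difference in signal. Probe sets differ in brightness for technical reasons, so levels are compared between arrays and not between genes. A known target of the receptor served as a check of the treatment. Abcb11, the bile salt export pump and a classical FXR target, lay between 4.74 and 5.09 in DMSO and between 7.81 and 8.14 with GW4064 (8.47-fold, limma adjusted p = 3.70e-05). Of 9 fixed hepatocyte markers, 8 were measured and all 8 lay above the 75th percentile of gene level. This sets genes side by side, so given the technical differences in brightness it is only a rough check of the hepatocyte label. None of the 8 passed the adjusted threshold. Hnf4a, a transcription factor of hepatocyte identity, was higher in every pair without overlap of the groups, with a change of 0.55 (SE 0.12, limma adjusted p = 0.393, 0.151 with the block). Summed levels of the 8, which the brightest secreted-protein genes such as Alb dominate, overlapped at 14.38 to 14.48 in DMSO and 14.34 to 14.47 with GW4064 (log2). Markers of other cells, many of which lay under the median of gene level, are given with the spread between replicates below. Array medians over all genes lay within 0.05 of each other.

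No enzyme gene of the 35 passed a limma adjusted p of 0.05, in either direction, without or with the replicate number as a block. Over all genes the same rule called 0.0496% higher and 0% lower without the block, and 0.0721% higher and 0.00902% lower with it. At an unadjusted p under 0.05, 4 members were lower and 0 were higher, which is 11.4% lower against 3.06% of all genes, and 0% higher against 2.6%. These 4 were Bhmt2, Cdo1, Mat1a and Tdo2. With the block, 7 were lower and 0 higher, or 20.0% lower against 5.12% of all genes, and 0% higher against 4.01%. The block added Csad, Tat and Glud1. The median log2 change of the 35 was -0.08 and 25 of them were below 0 (71.4%), while the other 10 were above 0. Over all genes the median was -0.02, with 55.4% below 0 and 44.6% above. Over genes above the median level, where most of the 35 lie, it was -0.03, with 60.7% below 0. Of those genes, 3.19% were lower at an unadjusted p under 0.05 without the block and 5.90% with it. Leaving out DMSO replicate 3 alone, which unbalances its pair, gave a median of 0.018 for the 35, with 17 of them below 0. No other omission of an array or pair brought that median above 0. The median differences of the 35 within pairs 1, 2 and 3 were -0.04, -0.07 and -0.13. In these bulk samples, fewer cells of a type and less RNA per cell cannot be told apart.

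**Figure D1:**
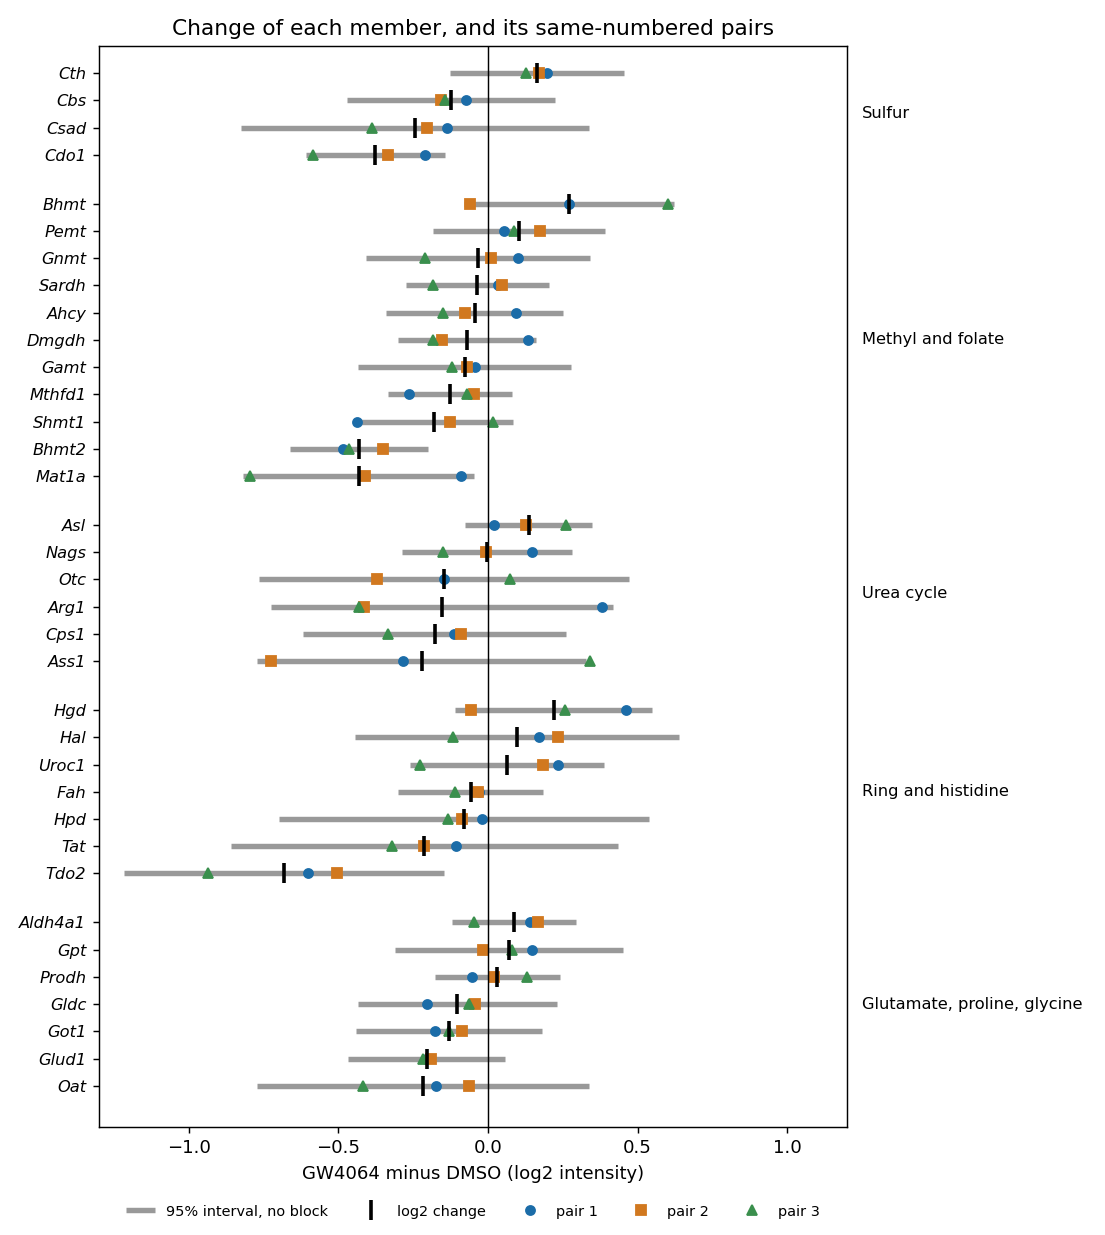
Log2 change of each of the 35 genes, GW4064 minus DMSO (black tick), with its 95% interval from limma without the block (grey bar) and the difference in each same-numbered pair (coloured symbols), grouped by pathway. Tdo2 lies farthest from 0, at -0.68, and the intervals of Bhmt2, Cdo1, Mat1a and Tdo2 lie wholly below 0 before adjustment for multiple tests.

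A pair of neighbouring paralogs encode remethylation enzymes, of which Bhmt2 was lower in every same-numbered pair and Bhmt differed in sign between the pairs. Bhmt encodes betaine-homocysteine methyltransferase, which moves a methyl group from betaine to homocysteine, and Bhmt2 encodes a related enzyme that uses S-methylmethionine. Promoter windows of 300 bases, from 250 before to 50 after the RefSeq start on build GRCm38.p6, are shown. They set the paralogs side by side and include Tdo2, which had the lowest log2 change of the 35. Capitals mark the hexamer AGGTCA on either strand, the core to which many nuclear receptors bind. The Bhmt window is at chr13:93637709-93638008 (minus strand), the Bhmt2 window at chr13:93674253-93674552 (minus strand) and the Tdo2 window at chr3:81975679-81975978 (minus strand).
Bhmt: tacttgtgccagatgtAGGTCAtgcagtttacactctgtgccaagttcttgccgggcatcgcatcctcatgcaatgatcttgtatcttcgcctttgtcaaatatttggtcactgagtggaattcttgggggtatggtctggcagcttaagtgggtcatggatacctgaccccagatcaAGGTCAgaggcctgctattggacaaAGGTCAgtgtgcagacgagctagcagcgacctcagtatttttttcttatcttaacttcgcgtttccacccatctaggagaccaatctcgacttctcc
Bhmt2: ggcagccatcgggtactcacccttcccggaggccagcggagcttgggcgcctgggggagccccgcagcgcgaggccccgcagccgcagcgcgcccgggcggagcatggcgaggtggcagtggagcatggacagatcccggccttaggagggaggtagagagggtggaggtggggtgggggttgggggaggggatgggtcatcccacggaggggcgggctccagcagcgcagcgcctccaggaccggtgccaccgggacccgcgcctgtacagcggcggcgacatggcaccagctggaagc
Tdo2: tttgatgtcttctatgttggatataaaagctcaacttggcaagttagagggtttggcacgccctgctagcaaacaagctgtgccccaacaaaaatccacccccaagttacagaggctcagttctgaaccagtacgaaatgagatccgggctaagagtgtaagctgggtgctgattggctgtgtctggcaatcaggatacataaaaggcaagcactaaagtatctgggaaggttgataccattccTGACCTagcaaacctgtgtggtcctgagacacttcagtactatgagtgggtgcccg
The hexamer occurred 3 times in the Bhmt window, 0 times in that of Bhmt2 and 1 time in that of Tdo2. The Bhmt2 window was also the richest of the 3 in G and C, at 73.7% against 48.0% for Bhmt and 47.7% for Tdo2. Of the 30 windows that the RefSeq table holds for 28 of the 35 genes, 10 contained the hexamer (33.3%), against 16.3% of all 32851 windows. The inverted repeat AGGTCANTGACCT, the form usually bound by FXR, contains the hexamer on both strands and was in 0 of these 30 windows and in 3 of all windows (0.00913%). These matches describe letters only, and no binding was measured.

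Bhmt2 (probe set 17295017) read 6.15, 6.23 and 6.33 in DMSO replicates 1, 2 and 3, and 5.67, 5.88 and 5.87 with GW4064. All 3 treated arrays lay below all 3 solvent arrays, and the pairs differed by -0.48, -0.35 and -0.46. The change was -0.43 (SE 0.10, n = 3 arrays per group), a 1.35-fold lower signal with a 95% interval of 1.15 to 1.58. The limma p was 0.00215 before adjustment, and the adjusted p was 0.512, or 0.236 with the block. Bhmt (probe set 17295005), whose array values are given for the contrast after they were seen, read 3.83, 3.99 and 3.37 in DMSO and 4.10, 3.93 and 3.97 with GW4064. The groups overlapped, the signal was below the median of gene level, and the change of 0.27 (SE 0.15) had an interval of -0.08 to 0.62. Its pairs were of mixed sign, at 0.27, -0.06 and 0.60, and without DMSO replicate 3 the change was 0.088. Probe sequences were not used here, so cross-hybridization between the paralogs was not tested.

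In the methionine cycle the entry enzyme had a log2 change below 0 and the changes of the next steps lay near 0. Mat1a (probe set 17298956), the hepatic S-adenosylmethionine synthetase, read 7.93, 7.71 and 8.24 in DMSO and 7.84, 7.30 and 7.45 with GW4064. The groups overlapped because the treated array of replicate 1 stood above the solvent array of replicate 2, although every pair was lower, by values from -0.80 to -0.09. Its change was -0.43 (SE 0.17, limma unadjusted p = 0.0320 and adjusted p = 0.858, or 0.0186 and 0.457 with the block). Gnmt (probe set 17345562), which uses up S-adenosylmethionine by methylating glycine, read 5.87, 5.70 and 6.31 in DMSO and 5.97, 5.71 and 6.09 with GW4064. Here the replicates lay in the same order in both groups and the change was -0.03 (SE 0.17). Ahcy, which splits S-adenosylhomocysteine, had -0.04 (SE 0.13), and a second, dimmer probe set of the gene gave -0.01.

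The methyl-consuming and folate enzymes had log2 changes between -0.18 and 0.10. Gamt, the last enzyme of creatine synthesis, went from 6.63 ± 0.23 to 6.55 ± 0.26 (mean ± SD, n = 3 each), and Pemt, which makes phosphatidylcholine by methylation, from 6.37 ± 0.20 to 6.48 ± 0.14. Pemt was higher in all 3 pairs, by 0.05 to 0.17. The mitochondrial enzymes Dmgdh and Sardh, which take methyl groups off dimethylglycine and sarcosine, had changes of -0.07 and -0.04 (SE 0.10 and 0.11). A dim second probe set of Sardh gave 0.07. Shmt1, which moves a carbon unit from serine to folate, had -0.18 (SE 0.12), and its treated arrays at 6.37 to 6.47 overlapped the solvent arrays at 6.40 to 6.81. Mthfd1, a trifunctional folate enzyme of the cytosol, went from 7.90 ± 0.04 to 7.77 ± 0.08 with groups that did not overlap and a change of -0.13 (SE 0.09, limma adjusted p = 0.963). Of the 11 methyl and folate genes, 9 were below 0 (81.8%, against 55.4% of all genes). In all 3 pairs 4 were lower (36.4%, against 18.6%) and 1 was higher (9.09%, against 12.6%).

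In the sulfur branch both taurine enzymes had log2 changes below 0, and the cystathionine enzymes had changes of opposite sign. Cdo1 (probe set 17354282), which oxidizes cysteine on the way to taurine, read 10.61, 10.77 and 10.85 in DMSO and 10.40, 10.43 and 10.27 with GW4064. The groups did not overlap, and the change was -0.38 (SE 0.10), or a 1.30-fold lower signal with a 95% interval of 1.11 to 1.52 (limma unadjusted p = 0.00515, adjusted p = 0.641, 0.370 with the block). The pair differences were unequal, at -0.21, -0.33 and -0.58.

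Csad (probe set 17322146), the decarboxylase that acts after Cdo1, read 5.79, 6.70 and 6.24 in DMSO and 5.66, 6.49 and 5.85 with GW4064. The replicate numbers differed by up to 0.87 in their pair means, more than any pair differed by treatment. Its change was -0.24, with an SE of 0.26 without the block and 0.09 with it (limma unadjusted p = 0.369 and 0.0299, adjusted p = 0.998 and 0.499). The pair differences of Csad were -0.14, -0.20 and -0.39. Without DMSO replicate 2 its change was -0.016, and without GW4064 replicate 2 it was -0.49, but leaving out 1 array unbalances its pair. Cbs, which joins homocysteine to serine, was lower in all 3 pairs, by -0.07, -0.16 and -0.14. Its change was -0.12 (SE 0.15), and -0.0017 without GW4064 replicate 2, which likewise unbalances pair 2. Cth, which then releases cysteine, was higher in all 3 pairs with 0.16 (SE 0.13), going from 9.01 ± 0.19 to 9.17 ± 0.16.

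**Figure D2:**
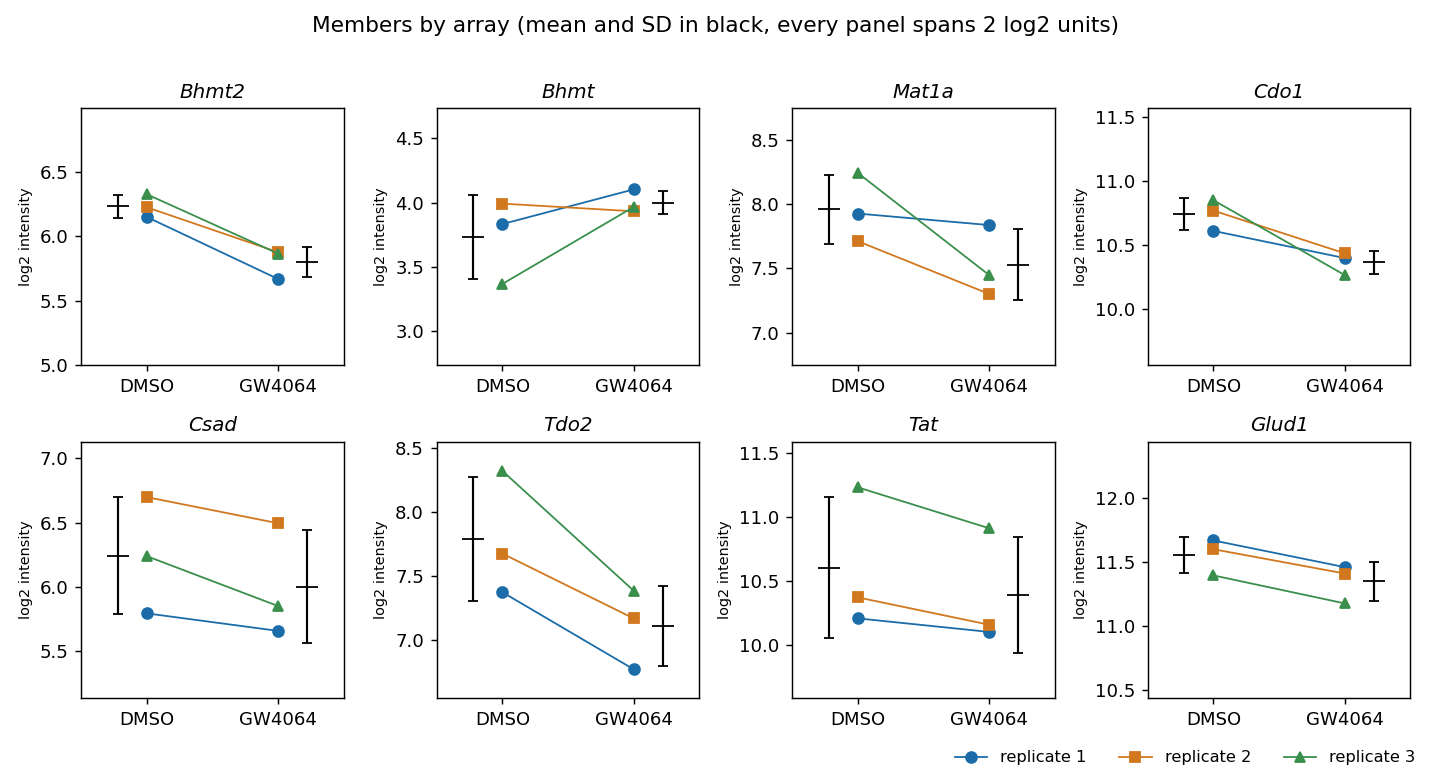
Log2 intensity of 8 members on each array, with lines joining same-numbered arrays and the mean and SD of each group in black (n = 3); every panel spans 2 log2 units. Bhmt2 and Cdo1 separate by group, Tdo2 is lower in every pair, and Csad and Tat differ more between replicate numbers than between DMSO and GW4064.

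The urea cycle genes showed no member at an unadjusted p under 0.05 with or without the block. Their log2 change was below 0 in 5 of 6 (83.3%, against 55.4% of all genes). In each of these 5 the sign turned in at least 1 fit with arrays left out. In all 3 pairs 1 was lower (16.7%, against 18.6%) and 1 was higher (16.7%, against 12.6%). Cps1 (probe set 17213894), the mitochondrial enzyme that fixes ammonia as carbamoyl phosphate, read 10.06, 10.36 and 10.80 in DMSO and 9.95, 10.27 and 10.46 with GW4064. Every pair was lower, by -0.09 to -0.33, while replicate numbers differed by 0.63, and the change was -0.18 with a 95% interval of -0.62 to 0.26. Ass1 (probe set 17369487), which makes argininosuccinate, read 5.26, 5.32 and 5.40 in DMSO, and 4.97, 4.59 and 5.75 with GW4064. The solvent arrays were tight (SD 0.07) and the treated arrays wide (SD 0.59), with replicate 2 the lowest and replicate 3 the highest of all 6 arrays. Without GW4064 replicate 2 the change of Ass1 was 0.03 in place of -0.22, so its sign rested on that array.

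Otc, which makes citrulline from ornithine, had a change of -0.15 (SE 0.27) and Arg1, the arginase that releases urea, -0.15 (SE 0.25). In Arg1 the DMSO arrays ran from 5.92 to 7.06 and the pair differences from -0.43 to 0.38. Asl, which splits argininosuccinate, was the urea cycle gene with a change above 0, at 0.14 (SE 0.09). Its 3 pair differences were 0.02, 0.13 and 0.26. Nags, which makes the activator of Cps1, went from 6.62 ± 0.23 to 6.62 ± 0.08, with -0.0029 (SE 0.13) from the brighter probe set. Its dimmer probe set gave -0.25 and was lower in all 3 pairs, so the 2 probe sets of Nags disagree.

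**Figure D3:**
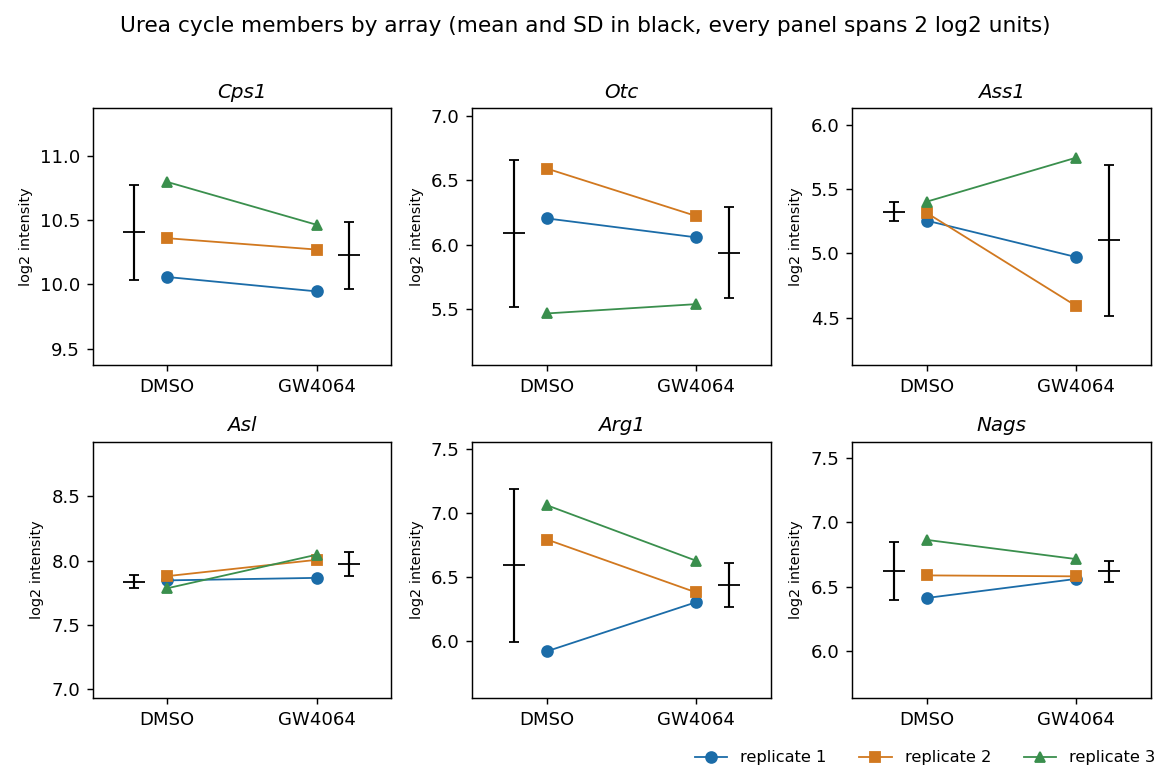
Log2 intensity of the 6 urea cycle genes on each array, with lines joining same-numbered arrays and the mean and SD of each group in black (n = 3). Cps1, Otc and Arg1 are spread by replicate number, the treated arrays of Ass1 run from 4.59 to 5.75, and Asl is higher in each pair.

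Among the enzymes of tryptophan, tyrosine and histidine breakdown, Tdo2 had the lowest log2 change of the 35 genes. Tdo2 (probe set 17406186), the hepatic dioxygenase that opens the tryptophan ring, read 7.38, 7.68 and 8.32 in DMSO and 6.77, 7.17 and 7.39 with GW4064. The highest treated array just exceeded the lowest solvent array, so the groups overlapped, but each pair was lower, by -0.60, -0.51 and -0.94. The change was -0.68, a 1.60-fold lower signal with a 95% interval of 1.11 to 2.32, or 1.34 to 1.91 with the block. The limma unadjusted p was 0.0182 and the adjusted p 0.797, against 5.23e-04 and 0.161 with the block.

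Tat (probe set 17505478), which starts tyrosine breakdown, read 10.21, 10.37 and 11.23 in DMSO and 10.10, 10.16 and 10.91 with GW4064. Each pair was lower, by -0.11, -0.21 and -0.32, against a range of 0.91 between replicate numbers, and the limma unadjusted p was 0.476, or 0.0419 with the block (adjusted p = 0.998 and 0.532). The next tyrosine enzymes, Hpd, Hgd and Fah, had changes of -0.08 (SE 0.27), 0.22 (SE 0.15) and -0.06 (SE 0.11). Hpd and Fah were lower in all 3 pairs by at most 0.13 in size. Hal and Uroc1, the first enzymes of histidine breakdown, had 0.10 (SE 0.24) and 0.06 (SE 0.14), with pairs of mixed sign, and Hal was below the median of gene level.

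The glutamate, proline and glycine enzymes had log2 changes between -0.22 and 0.09. Glud1 (probe set 17298805), the glutamate dehydrogenase that releases ammonia in mitochondria, read 11.67, 11.60 and 11.40 in DMSO and 11.46, 11.41 and 11.18 with GW4064. Its pairs were nearly equal, at -0.21, -0.19 and -0.22, and the change of -0.21 had an SE of 0.12 without the block and 0.08 with it (limma unadjusted p = 0.111 and 0.0344, adjusted p = 0.951 and 0.511). Oat, which turns ornithine into a proline and glutamate precursor, had -0.22 (SE 0.25), Got1, the cytosolic aspartate aminotransferase, -0.13 (SE 0.14) and Gldc, the glycine-cleaving decarboxylase, -0.10 (SE 0.15). All 3 were lower in each pair. Gpt, the alanine aminotransferase, had 0.07 (SE 0.17), and the proline-degrading enzymes Prodh and Aldh4a1 had 0.03 and 0.09 (SE 0.09 each).

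Counted by same-numbered pairs, 16 of the 35 genes were lower with GW4064 in all 3 pairs (45.7%), against 18.6% of all genes and 24.1% of genes above the median level, where 33 of the 35 lie. Besides Csad, Cdo1, Bhmt2, Mat1a, Cps1, Tat, Tdo2 and Glud1, these were Cbs, Gamt, Mthfd1, Hpd, Fah, Oat, Gldc and Got1. The 3 genes higher in all pairs, Cth, Pemt and Asl, were 8.57% of the 35, against 12.6% of all genes. Groups without overlap were found for 3 lower genes, Bhmt2, Cdo1 and Mthfd1 (8.57%), and for 0 higher genes (4.58% of all genes). The share for lower genes was 6.19% of all genes and 7.28% of genes above the median level. The genes share arrays, so these counts are not independent observations, and the median difference of the 35 was -0.04, -0.07 and -0.13 in pairs 1, 2 and 3. Effects of 2-fold or more lay outside the 95% interval in both directions for 34 of the 35 genes, as for 99.3% of all genes. The exception was Tdo2, whose interval of -1.22 to -0.15 includes a halving.

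Replicate number took a larger part of the spread than treatment in 27 of the 35 genes (77.1%), as in 74.3% of all genes, with 3 replicate numbers set against 2 groups. It held a median of 74.9% of a gene's sum of squares over the 6 arrays and treatment 9.51%, against 46.7% and 11.8% over all genes, and 56.5% and 11.2% over genes above the median level. Hpd stood at one end, with 98.6% by replicate number and arrays of 6.43, 6.04 and 7.02 in DMSO and 6.41, 5.95 and 6.88 with GW4064. Gamt, Gpt, Hal, Tat, Otc and Gnmt followed with 90.0% to 95.8%. Cdo1, Mthfd1, Aldh4a1 and Bhmt2 stood at the other end with 3.70% to 11.8%. The same number was highest in both groups for 25 of 35 genes (71.4%), against 44.5% of all genes. No single replicate was high throughout. The highest pair mean was in replicate 3 for 15 genes (42.9%), replicate 2 for 11 (31.4%) and replicate 1 for 9 (25.7%). Over all genes these shares were 33.2%, 32.2% and 34.6%. DMSO replicate 3 was the highest of all 6 arrays for 14 of the 35 (40%).

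Markers of other cells varied in how far they followed replicate number. Its share of the sum of squares exceeded that of treatment in 18 of 25 measured markers (72%, against 74.3% of all genes). The share by replicate number ran from 2.18% for the lymphocyte gene Cd79a to 98.7% for Cd68. Cd68, a macrophage lysosomal protein, read 9.63, 8.53 and 10.02 in DMSO and 9.86, 8.46 and 9.93 with GW4064. Each summed level given here is the log2 of the summed linear signals. That of the 6 Kupffer cell markers ran from 8.79 to 10.10 in DMSO and from 8.70 to 10.03 with GW4064. Cd68 dominates this sum. Of these 6, 4 lay under the median of gene level and 1 of them under the 25th percentile, and the 5 besides Cd68 had DMSO means of 2.72 to 4.23. Clec4f, a marker confined to Kupffer cells, had 23.7% by replicate number and 52.1% by treatment, with a change of -0.24 (SE 0.11, limma adjusted p = 0.918). Cyp2e1, a cytochrome of hepatocytes around the central vein, had 99.1% of its sum of squares by replicate number. All 4 measured cholangiocyte markers had positive changes with GW4064, against 44.6% of all genes. Sox9 led with 0.45 (SE 0.17, limma adjusted p = 0.858, 0.204 with the block). Krt19 and Epcam had pairs of mixed sign, and Epcam lay under the 25th percentile of gene level. The summed level of the 4 was 7.63 to 7.99 in DMSO and 7.94 to 8.42 with GW4064, and Sox9 dominates it. The 6 stellate markers summed to 7.19 to 7.29 and 7.23 to 7.31, the 6 endothelial markers to 7.26 to 7.57 and 7.20 to 7.48, and 3 leukocyte markers to 4.54 to 4.69 and 4.50 to 4.54. Under the median of gene level lay 4 of the stellate markers, 2 of the endothelial markers and all 3 leukocyte markers. The part of these other cells in the values of the enzyme genes was not tested.

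**Figure D4:**
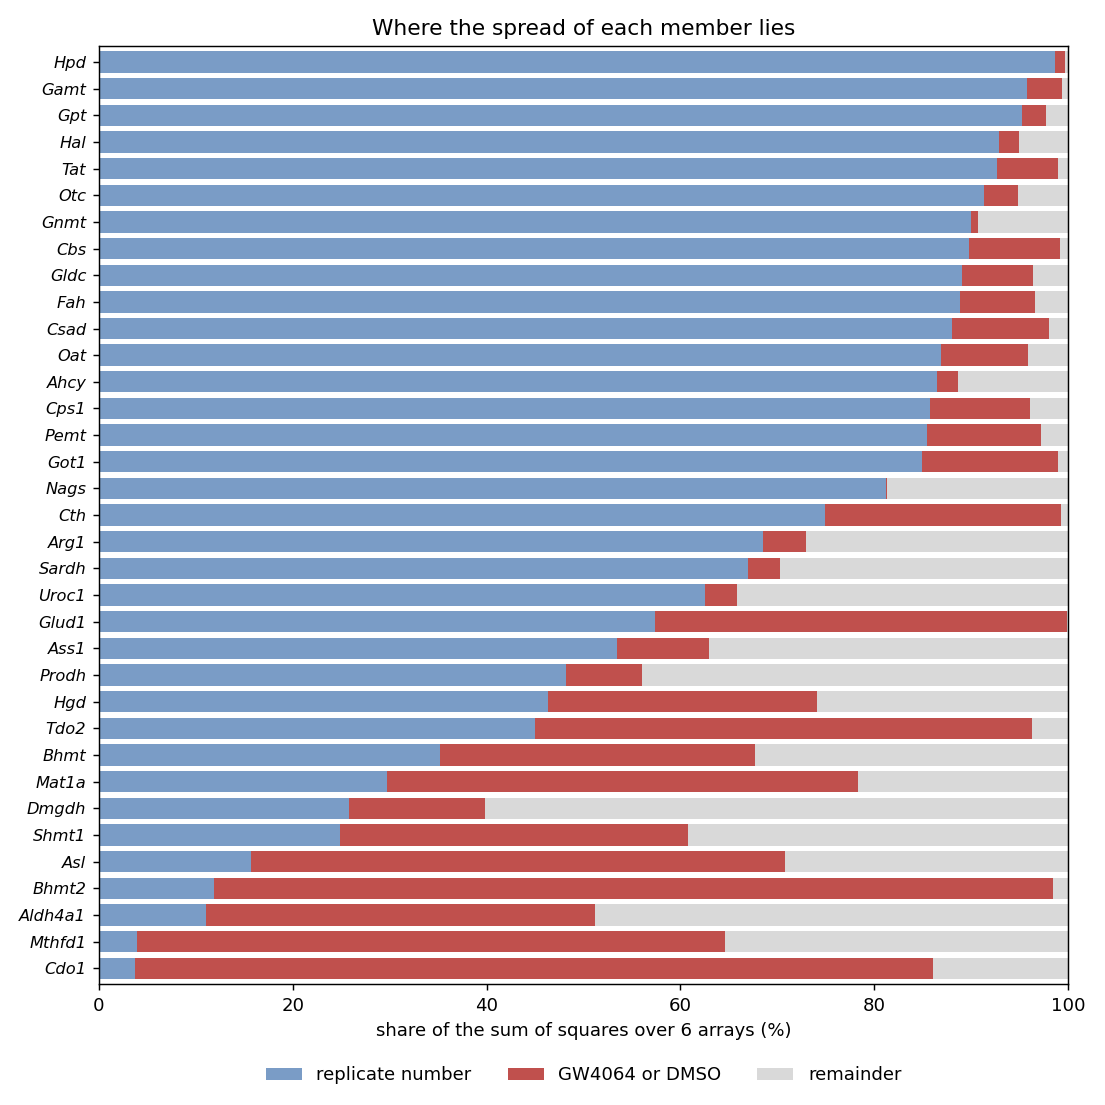
Share of each gene's sum of squares over the 6 arrays that lies between replicate numbers (blue), between GW4064 and DMSO (red) and in the remainder (grey), in percent, for the 35 genes. Replicate number takes 98.6% for Hpd, whereas treatment takes 82.3% for Cdo1 and 86.6% for Bhmt2.

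Among other genes of amino acid metabolism, 49 of 56 listed were measured and none passed the adjusted threshold in limma, without or with the block. At an unadjusted p under 0.05, 3 were lower and 1 was higher (6.12% and 2.04%, against 3.06% and 2.6% of all genes). With the block 5 were lower (10.2%, against 5.12%) and 3 higher (6.12%, against 4.01%). The median change was -0.04, and 29 of the 49 were below 0 (59.2%, against 55.4%). The subunits of glutamate-cysteine ligase, which uses cysteine for glutathione, had changes of opposite sign. Gclm, the modifier subunit, read 9.76, 9.75 and 9.57 in DMSO and 10.45, 10.44 and 10.22 with GW4064 (change 0.68, limma adjusted p = 0.122, 0.0688 with the block). Gclc, the catalytic subunit, read 11.48, 11.48 and 11.29 in DMSO and 11.10, 11.15 and 10.92 with GW4064. Its change was -0.36 (limma adjusted p = 0.688, 0.265 with the block). Neither pair of groups overlapped. The lysine-degrading enzyme Aass had -0.47 (SE 0.15) and the valine-degrading enzyme Aldh6a1 -0.22 (SE 0.09), both lower in every pair. Suox, the sulfite oxidase of cysteine breakdown, and Gatm, the first enzyme of creatine synthesis, had the next smallest p among higher genes. Their changes were 0.15 and 0.14 (SE 0.09 each), and Gatm was below the median of gene level.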

How the data were processed

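Biotin-labelled total RNA was hybridized to 1-colour arrays, per the labels. The table holds log2 intensities of probe sets, normalized by the authors with RMA. The submitters' processing notes name RMA and Partek and give no versions. No source states the log base, which was taken from the range, 0.94 to 13.07. Titles gave groups and replicate numbers. Of 41345 probe sets, 23521 have 1 symbol in the platform annotation, 1814 several and 16010 none. The brightest per gene was kept (1082 genes had several). Genome coordinates come from RefSeq windows, not from the arrays.

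GW4064 and DMSO were compared with limma 3.58.1 (lmFit, eBayes, R 4.3.3) over all 22180 genes with Benjamini-Hochberg adjustment, no filter and no block, and the script was tested on simulated data. The number of arrays limits precision, and an exact permutation of 3 against 3 cannot go below p = 0.1 (two-sided). Deviations of same-numbered arrays from their group means correlated by 0.26, 0.34 and 0.45 over all genes (0.74, 0.80 and 0.75 over the 35). These lie above the rule of 0.1, so blocked values stand beside many, but not all, of the results they change. The titles do not tie a number to a preparation.

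Members and lists were chosen with earlier results of these data known. Array values are printed for members with an unadjusted p under 0.05 in either fit or a change of 0.3 or more in size, and for Csad, Cdo1, Mat1a, Gnmt, Cps1, Ass1 and Tat. Those of Bhmt and Hpd were chosen after they were seen. Of the other pathway genes, the 3 with the smallest p per direction are named. Sums of squares were split by group, replicate number and remainder. Alternatives were quantile normalization, median centring, filters at the 25th percentile and the median of level, a variance trend, robust eBayes, the mean of probe sets, the block and leaving out arrays or pairs.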

Additional observations from a re-analysis of the deposited data

How the results depend on the processing

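No member passed the adjusted threshold in limma under any of the 17 alternatives that kept it. The count lower at an unadjusted p under 0.05 was 4, and it was 7 with the replicate block and 3 to 5 with arrays or pairs left out. The count higher was 0, and 0 to 2 with arrays or pairs left out, where the 2 were Bhmt and Hgd without DMSO replicate 2 or without pair 2. The median change ran from -0.11 to 0.018 with arrays or pairs left out, above 0 only without DMSO replicate 3, and the number of members below 0 ran from 17 to 26, a count added after the data were seen. Leaving out 1 array unbalances its pair. Of the 35, 17 kept their sign in every alternative run for them, 11 of them lower. Bhmt and Hal had 16 alternatives, since the filter at the median level removes both. Bhmt2 ran from -0.47 to -0.36 with arrays or pairs left out, Cdo1 from -0.46 to -0.27, Tdo2 from -0.89 to -0.42, Mat1a from -0.60 to -0.25, Csad from -0.49 to -0.016, Cbs from -0.26 to -0.0017, Shmt1 from -0.28 to -0.054, Dmgdh from -0.17 to -0.011, Mthfd1 from -0.17 to -0.059, Glud1 from -0.28 to -0.12 and Got1 from -0.25 to -0.033. The higher members were Bhmt with 0.088 to 0.44, Hgd 0.099 to 0.39, Cth 0.073 to 0.27, Pemt 0.0080 to 0.21, Asl 0.073 to 0.19 and Aldh4a1 0.046 to 0.15. Bhmt2 had an unadjusted p under 0.05 in every alternative, Cdo1 in 16, Tdo2 in 15 and Mat1a in 12. In 18 members the sign turned with arrays or pairs left out. Their ranges were Gnmt -0.16 to 0.14, Ahcy -0.11 to 0.076, Gamt -0.20 to 0.053, Sardh -0.10 to 0.046, Cps1 -0.35 to 0.018, Otc -0.46 to 0.10, Ass1 -0.54 to 0.034, Arg1 -0.49 to 0.080, Nags -0.11 to 0.12, Hal -0.16 to 0.30, Uroc1 -0.065 to 0.21, Tat -0.47 to 0.10, Hpd -0.31 to 0.18, Fah -0.12 to 0.020, Oat -0.44 to 0.057, Prodh -0.017 to 0.074, Gldc -0.22 to 0.028 and Gpt -0.089 to 0.22. Nags also turned with quantile normalization (0.025) and median centring (0.012), and Sardh with the mean of its probe sets (0.016). Gamt, Cps1, Otc, Arg1, Hal, Tat, Hpd, Fah, Oat, Gldc and Gpt turned only where 1 array was left out, never with a whole pair left out. Of these, Gamt, Cps1, Tat, Hpd, Fah, Oat and Gldc were lower in all 3 pairs. None of the 18 had an unadjusted p under 0.05 with all arrays and no block. With the block only Tat did (limma unadjusted p = 0.0419). The cause of the turned signs was not tested.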
